A study of Ovis aries with 62 samples.

Results

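The comparison described here was between AUS sheep whose rumen wall carried the most and the least RNA of genes that are used in cell division. A proliferation score was computed for each of 62 sheep as the mean log2 CPM (read counts scaled to the size of the library, on a log2 scale) of *NCAPG*, *TOP2A*, *TTK* and *CENPE*. Within each of the 4 test blocks, the 5 sheep with the highest score formed the high class and the 5 with the lowest score the low class, which gave 20 high and 20 low sheep, 40 of 62 in all. The other 22 sheep, with scores in between, are called the middle sheep. The sheep were thus chosen by measured values of these 4 genes, so the score's own difference between the classes is a description and has no test.

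All animals were Merino ewes on a single diet of chaffed lucerne and oat, and each gave 1 library from a full-thickness sample of the ventral rumen wall, which holds epithelium and muscle together. Blocks 1 to 4 were test periods with 16, 16, 14 and 16 ewes. No treatment separated the classes: they differ in a measured level only, and no cells were counted. The paper states that the ewes came from 4 sires, so many of them shared a sire. Sire is not in the labels, and every test took the ewes as independent.

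The rumen is lined by a stratified epithelium in which basal cells divide and their daughters move outward, differentiate and form a cornified layer. Before a cell divides it copies its DNA and makes new histones, and it then condenses the chromosomes, attaches them to the spindle through kinetochores and separates them. RNA of the genes for these steps is low in resting cells, so in a bulk sample it reflects mostly the dividing cells. In such a sample, fewer cells of a type and less RNA per cell cannot be told apart.

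The 4 scoring genes work at separate steps. *NCAPG* is a subunit of condensin, which compacts chromosomes, and it ran from 4.58 to 5.78 log2 CPM in the high class (median 4.97) and from 3.21 to 4.54 in the low class (median 4.10), so the classes did not overlap. *TOP2A*, the topoisomerase that untangles replicated DNA, ran from 6.55 to 7.45 (median 6.86) in the high class and from 5.43 to 6.69 (median 6.09) in the low class. *TTK*, a kinase of the spindle checkpoint, lay between 3.60 and 4.92 (median 4.13) in the high sheep and between 2.44 and 3.84 (median 3.28) in the low sheep. *CENPE*, a kinesin of the kinetochore, lay between 4.08 and 5.97 (median 4.93) in the high sheep and between 2.71 and 4.70 (median 4.03) in the low sheep. For *TOP2A*, *TTK* and *CENPE* the classes overlapped at their edges, with 14, 16 and 14 of the 20 high sheep above every low sheep.

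The score itself ran from 4.86 to 6.03 in the high class (median 5.23) and from 3.45 to 4.64 in the low class (median 4.38). The mean gap was 0.91 on the log2 scale, a 1.88-fold difference, while the whole range over 62 sheep was 5.98-fold. The edges of the classes lay close to the middle sheep. In block 4 the lowest high sheep scored 4.99 and the next sheep 4.98, and the highest low sheep scored 4.64 and the next 4.68. In block 1 the same pairs were 5.22 and 5.04, and 4.61 and 4.88. Those of block 2 were 4.86 and 4.75, and 4.52 and 4.54. Those of block 3 were 4.91 and 4.76, and 4.55 and 4.62. A score from all 43 genes of the study's cell cycle list left 36 of the 40 sheep in their class and moved none to the opposite class.

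**Figure D1:**
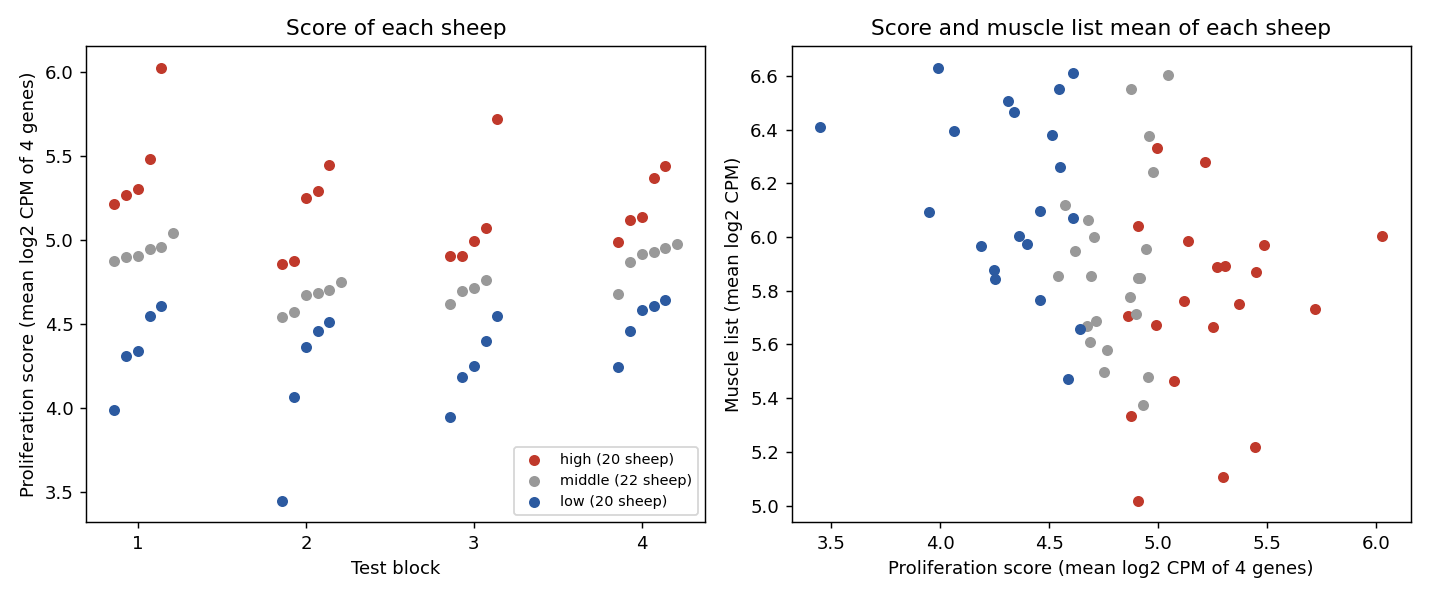
Left, the proliferation score (mean log2 CPM of *NCAPG*, *TOP2A*, *TTK* and *CENPE*) of each of 62 sheep by test block, with 20 high sheep in red, 22 middle sheep in gray and 20 low sheep in blue, spread sideways in order of score. Right, the same score against the mean log2 CPM of the study's muscle list, where the low sheep reach 6.63 and the high sheep 6.33, and the lowest muscle mean, 5.02, belongs to a high sheep.

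The muscle part of the wall moved with the classes. *NEXN*, a protein of the contractile filaments that was the covariate of every fit below unless stated, ran from 4.15 to 7.47 log2 CPM in the high class (median 6.10) and from 5.50 to 7.94 in the low class (median 6.79). It was lower in the high class by a mean of 0.685 (log2 difference −0.685, SE 0.217, 20 against 20 sheep, 2-sided permutation of the class within blocks, p = 0.00388), and in every block. The gap was widest in block 2 (−1.35), then block 1 (−0.83), block 3 (−0.42) and block 4 (−0.14). The mean of the 647 genes of the study's muscle list was likewise lower in the high class, with a log2 difference of −0.417 within blocks.

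*NEXN* did not take up all of this. With block and *NEXN* held constant, the muscle list mean still lay 0.157 below in the high class (log2 difference −0.157), and the mean of the epithelial adhesion genes *CDH1*, *EPCAM*, *DSG3* and *PERP* lay 0.191 above. With the muscle list mean held constant in place of *NEXN*, the adhesion mean lay 0.077 above and *NEXN* itself 0.231 above. The high class also had deeper libraries, with a median of 8492819 assigned reads (lowest 4793996, highest 12130080) against 7364706 (lowest 4208032, highest 10755592) in the low class, a difference that did not pass its test (permutation within blocks, p = 0.123). The part of muscle content and depth in the results below was not tested, and counts are given with each covariate. In the fits below the muscle list mean replaced *NEXN*, while the adhesion mean and the log2 of assigned reads were each added to *NEXN*.

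In the fit with block and *NEXN*, 279 of 16006 genes were higher in the high class (1.74%) and 116 were lower (0.725%) at an adjusted p of 0.05. The higher genes included all 39 members of the study's cell cycle list that the score did not use, so 240 lay outside it. The list was built by the study from correlations in sheep rumen samples that included these. Its genes stand for the same process as the score, so the 39 are described here and no p is given for them. They were nevertheless among the 16006 genes adjusted together, and their small p values lower the adjusted p of other genes. Calls close to 0.05 could change without them, which was not tested. Their median log2 difference was 0.69 beside 0.00055 over all genes, with a range from 0.41 to 0.88, or 1.33-fold to 1.84-fold. Every one of the 39 was higher in the high class in each of the 4 blocks before any adjustment for *NEXN*.

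Among the motors and spindle proteins, *ASPM*, which organizes spindle poles, had the largest difference. It ran from 4.99 to 6.60 log2 CPM (median 5.39) in the high class and from 3.91 to 5.003 (median 4.68) in the low class, and 19 of 20 high sheep lay above every low sheep. That is a log2 difference of 0.87 (SE 0.12) with *NEXN* as covariate. *KIF11*, the kinesin that pushes the spindle poles apart, ran from 4.68 to 5.94 (median 5.15) in the high class and from 3.49 to 4.78 (median 4.37) in the low class, with a log2 difference of 0.76 (SE 0.10). *KIF20A* (0.80) and *KIF4A* (0.75), kinesins of the spindle midzone, and *PRC1* (0.70), which bundles its microtubules, differed by similar amounts. Differences of 0.85 for *DLGAP5*, 0.78 for *CKAP2*, 0.65 for *HMMR* and 0.54 for *NUSAP1*, all microtubule-associated proteins of the spindle, spanned most of the range of the list.

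At the kinetochore and checkpoint, *BUB1B* ran from 4.47 to 5.54 log2 CPM (median 4.92) in the high class and from 3.47 to 4.67 (median 4.04) in the low class, with a log2 difference of 0.79 (SE 0.11). Its partner kinase *BUB1* differed by 0.64 and the kinetochore scaffold *CASC5* by 0.64. *PLK1*, a kinase needed for entry into mitosis, ran from 3.11 to 5.13 (median 4.17) in the high class and from 2.65 to 4.06 (median 3.40) in the low class, with 12 of 20 high sheep above every low sheep (log2 difference 0.74, SE 0.14).

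Among genes for copying and handling DNA, *RRM2*, a subunit of the enzyme that makes deoxyribonucleotides, ran from 4.55 to 5.70 log2 CPM (median 4.9993) in the high class and from 3.41 to 4.92 (median 4.23) in the low class, with a log2 difference of 0.81 (SE 0.12). *FANCD2*, which acts in repair of crosslinked DNA, differed by 0.69, and *SMC2*, the condensin core subunit, by 0.60. The 13 histone genes with a symbol differed by 0.49 for *HIST1H4E* to 0.88 for histone H2B type 1, with a median of 0.66. Histone genes have near-identical copies, so reads may be split between them and the value of a single copy is uncertain.

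*MKI67*, the Ki-67 protein that is widely stained to find dividing cells, followed the classes least closely. It ran from 5.50 to 8.11 log2 CPM (median 6.60) in the high class and from 4.63 to 7.55 (median 5.86) in the low class, so that only 2 of 20 high sheep lay above every low sheep, although 18 of 20 lay above the low median. Its log2 difference was 0.73 (SE 0.16). Across all 62 sheep, with block means removed, its r with the score was 0.54, the lowest of the 39 genes, which otherwise ran from 0.71 to 0.94 for *KIF11*. These r values share libraries with the score and are given as a description.

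**Figure D2:**
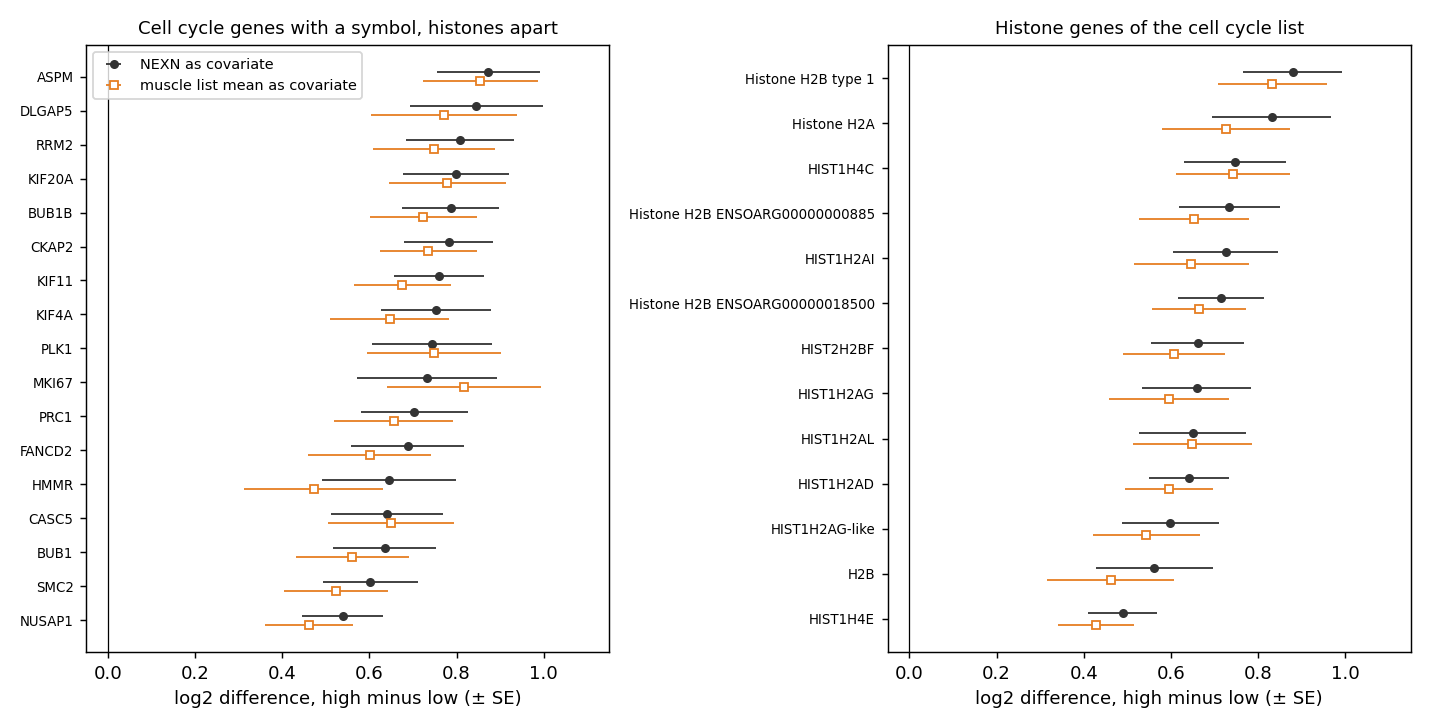
Log2 difference (high minus low, 20 against 20 sheep) of cell cycle genes with a symbol that the score did not use, with genes of division and replication on the left and 13 histone genes on the right. Dots are fits with *NEXN* and open squares fits with the muscle list mean as covariate, with bars of 1 SE; all lie above 0, and the median of the 39 genes moves only from 0.69 to 0.65 between them.

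The difference of the cell cycle genes moved little with the muscle covariate. Their median log2 difference was 0.75 with no muscle covariate, 0.69 with *NEXN* and 0.65 with the muscle list mean. *HMMR* moved from 0.65 with *NEXN* to 0.47 with the muscle list mean, and *MKI67* from 0.73 to 0.82. By block, with *NEXN*, the median of the 39 genes was 0.91, 0.75, 0.74 and 0.45 in blocks 1 to 4. These values are descriptions, since the classes were formed from genes of the same process.

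In the 22 middle sheep, which the classes left out, the score has little room to vary, with an SD of 0.15 against 0.44 over all sheep. The r of the 17 genes of spindle, kinetochore, replication and repair with the score, with block means removed, had a median of 0.38 there and a range from −0.01 for *RRM2* to 0.69 for *BUB1B*. For the 13 histone genes the median was 0.11 and the range was from −0.16 for *HIST1H2AL* to 0.37 for *HIST2H2BF*. The scoring genes themselves, which make up the score, had an r of 0.23 (*TOP2A*) to 0.58 (*NCAPG*). These are descriptions over 22 sheep, with shared libraries.

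Outside the cell cycle list, 16 genes with a symbol were higher in the high class, and those with the largest differences follow by role. None of the 16 passed when the log2 of assigned reads was added as a covariate, and the part of depth in them was not tested. *S100A12*, a calgranulin in the study's epithelial differentiation list, had the largest difference. It ran from 9.24 to 11.93 log2 CPM in the high class (median 11.10) and from 7.55 to 11.49 in the low class (median 10.27), and the classes overlapped widely. Its log2 difference was 0.95 (SE 0.27, adjusted p = 0.0442). Its relatives *S100A8* (log2 difference 0.84, SE 0.24, adjusted p = 0.0526) and *S100A9* (0.97, SE 0.31, adjusted p = 0.0825) did not pass. *LGALS7*, a galectin of stratified epithelia, ran from 5.57 to 7.01 (median 6.50) in the high class and from 5.19 to 6.75 (median 5.92) in the low class, with a log2 difference of 0.37 (SE 0.11, adjusted p = 0.0468).

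Genes of the secretory pathway and of glycosylation were among the higher ones. *SLC35B1*, a nucleotide transporter of the endoplasmic reticulum (ER), ran from 5.20 to 6.81 log2 CPM (median 6.42) in the high class and from 4.32 to 6.51 (median 6.10) in the low class (log2 difference 0.43, SE 0.11, adjusted p = 0.0226). *PDIA3*, an ER enzyme that forms disulfide bonds in folding proteins, differed by 0.33 (SE 0.08, adjusted p = 0.0168), with 19 of 20 high sheep above the low median. *GALNT1*, which starts O-linked glycosylation, differed by 0.32 (SE 0.08, adjusted p = 0.0354). *CANX*, an ER chaperone, differed by 0.20 (SE 0.06, adjusted p = 0.0438). All 18 genes of the ER translocation and folding list had a positive difference (median 0.21), and 2 of them, *PDIA3* and *CANX*, passed, 11.1% beside 1.74% of all genes. With the muscle list mean and the adhesion mean the medians were 0.14 and 0.091, and none passed.

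Of the 14 respiratory chain genes, all had a positive difference (median 0.22) and 4 passed, 28.6% beside 1.74% of all genes. With the muscle list mean and the epithelial adhesion mean the medians were 0.14 and 0.12, and none passed. *ATP5O*, a subunit of ATP synthase, ran from 8.04 to 8.83 log2 CPM (median 8.43) in the high class and from 7.22 to 8.48 (median 8.17) in the low class (log2 difference 0.30, SE 0.08, adjusted p = 0.0257). The complex III subunits *UQCRB* (0.31, SE 0.08, adjusted p = 0.0329) and *UQCRC2* (0.23, SE 0.06, adjusted p = 0.0236) also rose. *PGK1*, an enzyme of glycolysis, differed by 0.29 (SE 0.07, adjusted p = 0.0192), and *TXN*, the redox protein thioredoxin, by 0.40 (SE 0.10, adjusted p = 0.0282). The genes *MT-ND5*, *COIII*, *MT-ATP6* and *CYT.B*, encoded by mitochondrial DNA, had differences from −0.23 to 0.18 and none passed, with the smallest p for *COIII* (−0.23, SE 0.25, adjusted p = 0.693).

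*HAT1* acetylates newly made histone H4 and so stands close to DNA replication, although it is not in the cell cycle list. It ran from 4.64 to 5.42 log2 CPM (median 5.12) in the high class and from 3.57 to 5.11 (median 4.78) in the low class. The log2 difference was 0.39 (SE 0.09, adjusted p = 0.0158), and no low sheep lay above the high median.

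Of the 116 lower genes, 40 had a symbol and 41 were in the study's muscle list, which the study built from correlations that included these samples. The list holds genes expressed in the muscle and the connective tissue of the wall and many with broad roles. Of its 646 tested members, 41 fell, or 6.35% beside 0.725% of all genes, and none rose, with a median log2 difference of −0.15. With the muscle list mean, which is made of these genes, the median was −0.0054, none fell and 1 rose, and with the epithelial adhesion mean 3 fell. *FBXO32*, a ubiquitin ligase of muscle wasting, ran from 5.91 to 7.79 log2 CPM (median 6.74) in the high class and from 6.46 to 8.19 (median 7.50) in the low class (log2 difference −0.55, SE 0.15, adjusted p = 0.0329). *SOGA1* ran from 2.06 to 4.15 (median 3.2005) in the high class and from 3.28 to 4.99 (median 3.74) in the low class, where all 20 sheep lay above the high median (log2 difference −0.55, SE 0.12, adjusted p = 0.00472). *KCNMA1*, the pore of a potassium channel that relaxes smooth muscle, ran from 3.82 to 6.50 (median 5.45) in the high class and from 4.79 to 7.47 (median 6.21) in the low class (log2 difference −0.43, SE 0.10, adjusted p = 0.0126).

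Other lower genes, which are in the same muscle list, act in chromatin, transport and cell structure. *SATB1*, an organizer of chromatin, differed by −0.51 (SE 0.13, adjusted p = 0.0279). In a separate list of 19 chromatin regulators, 18 had a negative difference (median −0.21) and 1 passed, 5.26% beside 0.725% of all genes. The medians by block were −0.57, −0.29, −0.015 and −0.089 in blocks 1 to 4. With the muscle list mean and the adhesion mean the medians were −0.17 and −0.073, and none passed. *ABCC5*, an export pump, differed by −0.42 (SE 0.09, adjusted p = 0.0072), *HIP1*, an endocytosis protein, by −0.40 (SE 0.09, adjusted p = 0.00702) and *FILIP1*, a filamin-interacting protein, by −0.40 (SE 0.11, adjusted p = 0.0400). *LAMA5*, a laminin chain of basement membranes, ran from 7.32 to 8.44 log2 CPM (median 7.78) in the high class and from 7.59 to 8.77 (median 8.10) in the low class (log2 difference −0.33, SE 0.08, adjusted p = 0.0108). Of 10 basement membrane genes it alone passed, 10% beside 0.725% of all genes, and all 10 had a negative difference (median −0.19). With the muscle list mean their median was −0.025 with 4 genes positive, and with the adhesion mean it was −0.15. None passed in either fit. *TNRC18* (−0.41, adjusted p = 0.0102), *LENG8* (−0.41, adjusted p = 0.0167) and *KLHDC8B* (−0.41, adjusted p = 0.0108) completed the 10 largest falls among genes with a symbol.

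None of these genes outside the cell cycle list kept its call when the muscle list mean took the place of *NEXN*. All kept their sign, with log2 differences of 0.91 for *S100A12* (adjusted p = 0.190), 0.31 for *HAT1* (adjusted p = 0.185), 0.26 for *PGK1* (adjusted p = 0.136) and −0.45 for *SOGA1* (adjusted p = 0.0940). In that fit 104 genes were higher (0.65%) and 17 lower (0.106%). With the epithelial adhesion mean added to *NEXN* as a covariate, none of the 20 genes with the largest differences passed either. In that fit adjusted p was 0.0946 for *SOGA1* and 0.294 for *HAT1*.

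**Figure D3:**
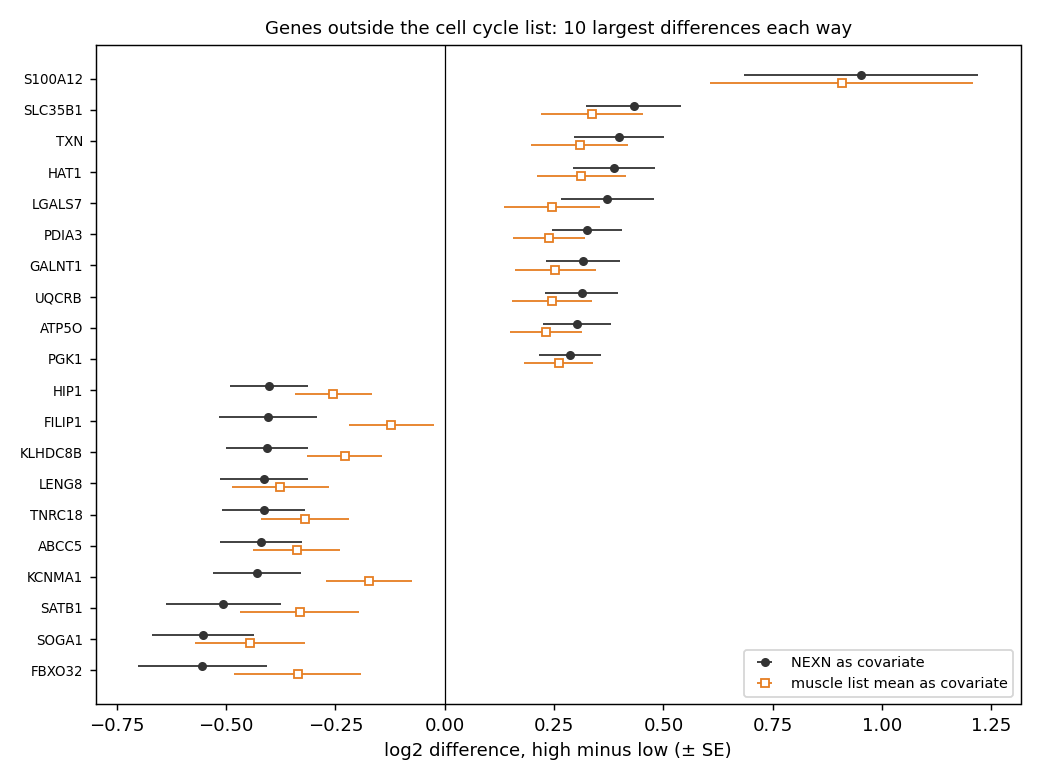
Log2 difference (high minus low, 20 against 20 sheep) of the 10 genes with a symbol outside the cell cycle list that rose most and the 10 that fell most among those past an adjusted p of 0.05 with *NEXN* as covariate (dots, bars of 1 SE). Open squares give the fit with the muscle list mean, where each gene keeps its sign, *S100A12* is at 0.91 and *FBXO32* moves from −0.55 to −0.34.

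Left out one at a time, none of the 40 sheep ended the call of *SLC35B1*, *HAT1*, *PDIA3*, *PGK1*, *SOGA1*, *KCNMA1*, *ABCC5*, *TNRC18*, *LENG8*, *KLHDC8B*, *HIP1* or *LAMA5*. The call of *S100A12* was lost in 23 of the 40 cases and that of *LGALS7* in 25, both with their highest adjusted p without sheep oz171 of the low class (0.0963 and 0.109). *CANX* lost its call in 20, *FILIP1* in 13, *UQCRB* in 10, *GALNT1* in 10, *FBXO32* in 8, *TXN* in 4, *ATP5O* in 2, *UQCRC2* in 2 and *SATB1* in 1. For *FILIP1* the highest adjusted p came without oz214 (0.0822), for *UQCRB* without oz61 (0.0881), for *GALNT1* without oz218 (0.0759) and for *SATB1* without oz94 (0.0594).

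All 22 cornification genes had a positive difference, with a median of 0.45, and 2 passed (*S100A12* and *LGALS7*), which is 9.09% beside 1.74% of all genes. The median was 1.20 in block 1, then 0.57, 0.26 and 0.25 in the later blocks, and with the epithelial adhesion mean as covariate it was 0.085, with 14 of 22 genes positive and no call. In the study's epithelial differentiation list 42 of 43 genes were positive (median 0.35) and 4 rose, 9.3% of the list. Its medians by block were 0.73, 0.37, 0.07 and 0.21, and with the adhesion mean the median was 0.052, 28 genes were positive and none was called, nor was any with the muscle list mean. Without block 1 its median was 0.22, with 41 genes positive and 1 of 43 called higher, beside 98 of all 16006 genes. The transglutaminases *TGM1* (0.34, SE 0.16, adjusted p = 0.269) and *TGM3* (0.51, SE 0.23, adjusted p = 0.232), which crosslink the cornified envelope, and the keratin *KRT78* (0.46, SE 0.32, adjusted p = 0.464) did not pass. Of 9 adhesion genes 8 were positive (median 0.17) and none passed, with the smallest p for the desmosomal cadherin *DSG3* (0.24, SE 0.09, adjusted p = 0.131), and its median was 0.0072 with the muscle list mean. The epithelial transcription factors had a median of −0.06 over 10 genes and the growth factor and cytokine genes 0.19 over 8 genes. None of either passed, and the smallest p were those of *EHF* (0.28, SE 0.09, adjusted p = 0.0927) and of the receptor *IL13RA1* (0.22, SE 0.08, adjusted p = 0.114).

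The rumen epithelium turns absorbed butyrate into ketone bodies. The 7 genes of this pathway had a median log2 difference of −0.04 and differences from −0.17 to 0.06, and none passed. *BDH1*, which makes 3-hydroxybutyrate, differed by −0.04 (SE 0.11, adjusted p = 0.896), and *ACADS*, a butyryl-CoA oxidizing enzyme, by −0.17 (SE 0.12, adjusted p = 0.465). The direction rested on the covariate: the median of the list was 0.18 with no muscle covariate and −0.19 with the muscle list mean. The study's lipid and oxo-acid list did the same, with a median of 0.06 over 41 genes, −0.05 with the muscle list mean and no gene past the threshold in either fit. Its smallest p was that of *CDS1*, an enzyme of phospholipid synthesis (0.38, SE 0.11, adjusted p = 0.0515).

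Transporters of acid, bicarbonate and monocarboxylates (5 genes) had a median log2 difference of 0.12, and none passed. *SLC16A1*, the monocarboxylate transporter that carries ketone bodies and lactate, ran from 9.14 to 10.79 log2 CPM (median 10.13) in the high class and from 8.53 to 10.46 (median 9.86) in the low class. Its log2 difference was 0.17 (SE 0.14, adjusted p = 0.555) and 0.0039 with the muscle list mean. The 36 cytosolic ribosomal protein genes had a median of 0.01, and the smallest p was that of *RPS15A-like* (0.18, SE 0.09, adjusted p = 0.279). The 7 proteasome genes were all positive (median 0.18) and none passed (*PSMA3* 0.19, SE 0.06, adjusted p = 0.0999). The study's transport list of general metabolism (28 genes, median 0.10) had no call (*SSR3* 0.21, SE 0.07, adjusted p = 0.0830), nor did its type I interferon list (16 genes, median −0.13, *MOV10* −0.21, SE 0.14, adjusted p = 0.433). In the largest epithelial list, 354 other genes of metabolism, the median was 0.13 and 12 genes rose, 3.39% beside 1.74% of all genes. With the muscle list mean and the adhesion mean its medians were 0.037 and 0.0096, and none rose.

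For contractile and fibroblast genes the sign of the median changed with the covariate. Over 17 smooth muscle contractile genes the median log2 difference was −0.59 with no muscle covariate, −0.05 with *NEXN* and 0.20 with the muscle list mean. *MYH11*, the smooth muscle myosin heavy chain, ran from 12.13 to 14.48 log2 CPM (median 13.38) in the high class and from 12.87 to 14.78 (median 14.04) in the low class, and was lower in the high class in all 4 blocks before adjustment. With *NEXN* its log2 difference was −0.14 (SE 0.12, adjusted p = 0.596). For 17 fibroblast and matrix genes the medians were −0.36, −0.05 and 0.12 in the same order. The collagens *COL1A1* (0.04, SE 0.18) and *COL3A1* (0.12, SE 0.15) did not pass with *NEXN*. *MMP1*, a collagenase, had the smallest p of that list (1.76, SE 0.59, adjusted p = 0.101), at levels from −2.42 to 4.56 log2 CPM in the high class. Leukocyte and endothelial cells could not be followed, since none of the 9 markers listed for them had a symbol in the tables used.

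**Figure D4:**
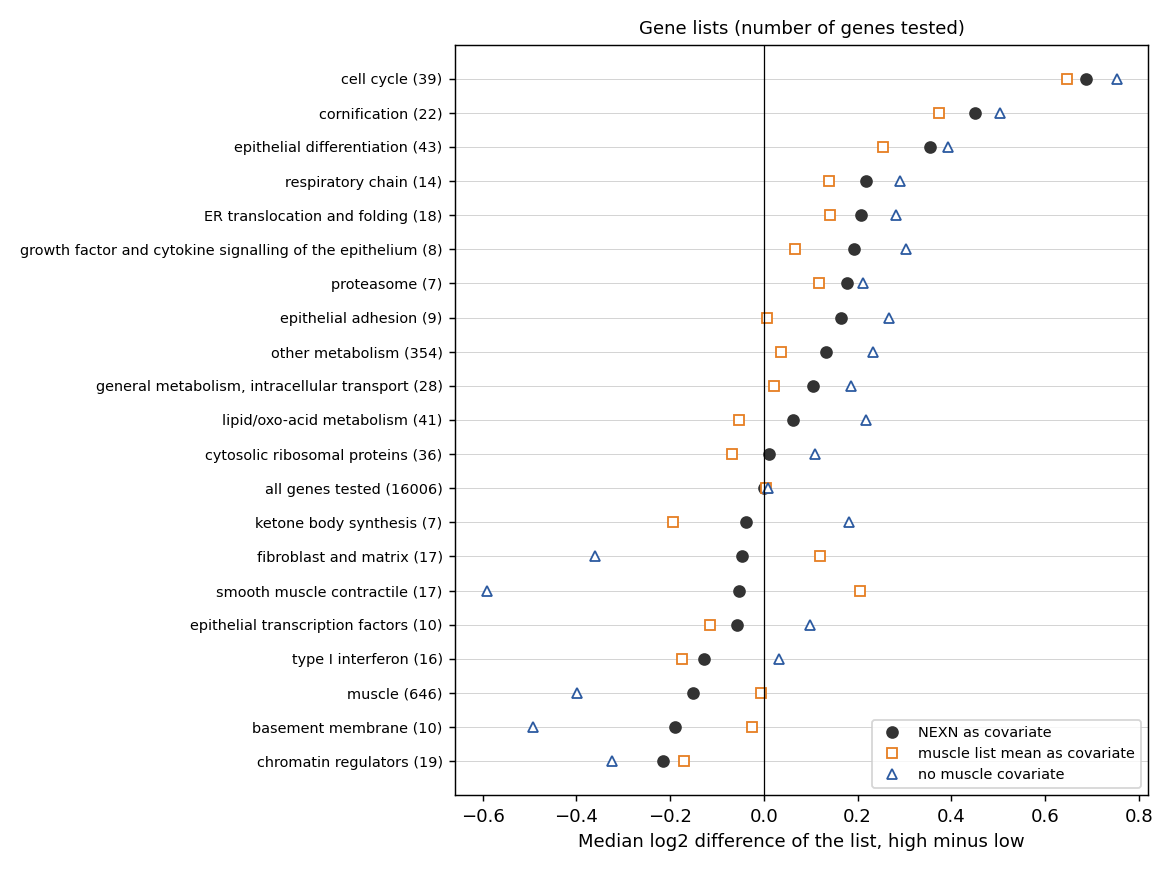
Median log2 difference (high minus low) of all genes and of lists with 7 or more tested genes, with the number of genes in brackets. The spindle and kinetochore list and the histone list, whose genes are in the cell cycle list, are left out. Fits are those with *NEXN* (dots), the muscle list mean (open squares) and no muscle covariate (open triangles). The cell cycle list stays near 0.7 in each, while the smooth muscle list goes from −0.59 to 0.20.

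The difference between the classes could not be shown to vary from block to block. No gene passed the limma test of the block by class terms (0 of 16006, with 831 genes or 5.19% at an unadjusted p of 0.05, and a smallest adjusted p of 0.223). The counts fell whichever block was left out, and each such fit has fewer sheep. Without blocks 1, 2, 3 and 4 in turn, 98, 154, 163 and 134 genes were higher, beside 279 with all blocks. The lower genes numbered 16, 58, 113 and 27, beside 116. Genes with a symbol outside the cell cycle list called in either direction numbered 6, 29, 41 and 14, beside 56. The part of the number of sheep in these counts was not tested. From block 1 to block 4, the log2 differences of *S100A12* were 1.60, 1.30, 0.52 and 0.64, and those of *FBXO32* were −0.91, −0.63, −0.68 and −0.12.

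Feed intake, methane and weight come from the sample labels and were not used to form the classes. CH4 production ran from 16.4 to 34.6 g/d in the high class (median 23.5) and from 15.6 to 31.4 g/d in the low class (median 24.6). The means were 23.9 ± 4.31 (SD, n = 20) and 24.5 ± 4.48 (SD, n = 20), a difference within blocks of −0.592 g/d (SE 1.36, 2-sided permutation within blocks, p = 0.675, adjusted over 4 traits 0.835). CH4 yield was 19.9 ± 2.71 g/kg DMI (SD, n = 19) in the high class and 20.8 ± 3.30 (SD, n = 20) in the low class (difference −0.908, SE 0.92, permutation p = 0.337, adjusted 0.835). DMI was 1.22 ± 0.27 kg/d (SD, n = 19) and 1.21 ± 0.296 (SD, n = 20), a difference of 0.018 kg/d (SE 0.081, permutation p = 0.835, adjusted 0.835). Live weight was 63.3 ± 9.76 kg (SD, n = 20) and 64.7 ± 8.05 (SD, n = 20), a difference of −1.43 kg (SE 2.92, permutation p = 0.631, adjusted 0.835).

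Sheep oz151 of the high class was left out of CH4 yield and DMI because its labeled DMI of 0.0795 kg/d is far below that of every other sheep, and its labeled CH4 production of 23.9 g/d equals that of sheep oz224. With it, the difference in CH4 yield was 13.1 g/kg DMI (permutation p = 0.829).

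No trait passed, and the classes overlapped in each. The sign of the CH4 production difference was not the same in all blocks: from block 1 to block 4 the differences were −4.07, 0.184, 4.31 and −2.79 g/d. Permuting the class within blocks did not show that these 4 differences vary more than sheep do (p = 0.145, adjusted over 4 traits 0.29). Over all sheep with block means removed, the score had an r of −0.12 with CH4 production (n = 62, permutation p = 0.346, rho = −0.05, p = 0.675), −0.06 with CH4 yield (n = 61, p = 0.616, rho = −0.06, p = 0.651), −0.08 with DMI (n = 61, p = 0.503, rho = −0.01, p = 0.953) and −0.10 with live weight (n = 62, p = 0.461, rho = −0.08, p = 0.569). Adjusted over 4 traits, each r had p = 0.616 and the smallest for rho was 0.9. After the 2 sheep with scores most distant from the median were left out, the r values were −0.02, −0.07, 0.01 and −0.05. Within blocks 1 to 4, r with CH4 production was −0.54, −0.10, 0.47 and −0.12.

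**Figure D5:**
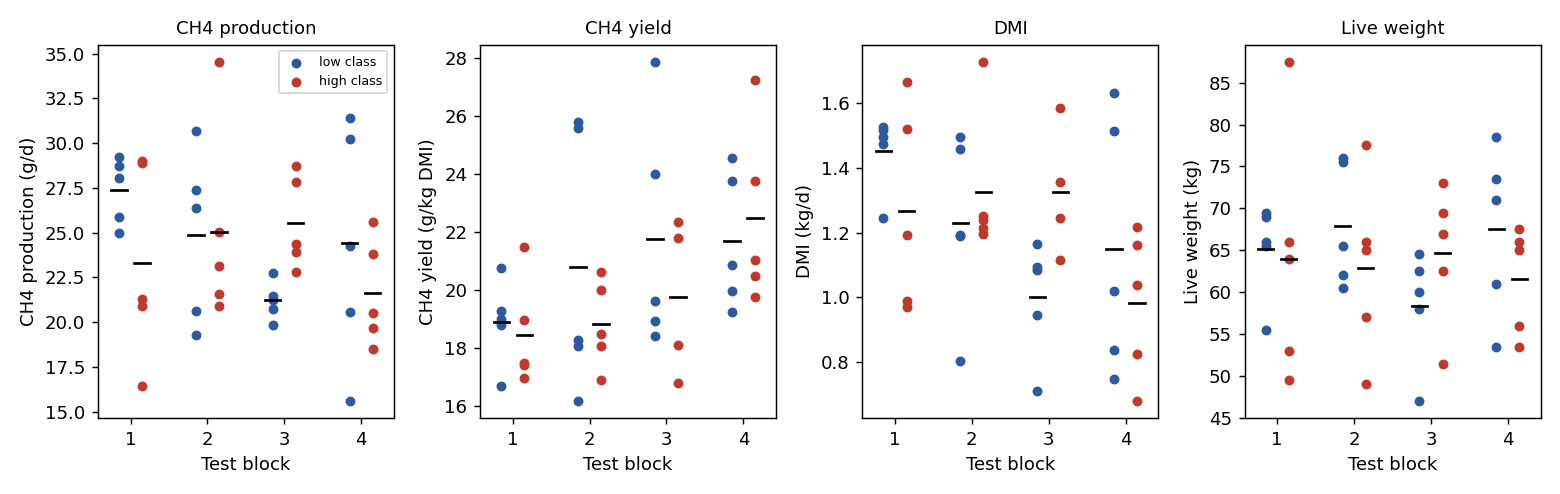
CH4 production (g/d), CH4 yield (g/kg DMI), DMI (kg/d) and live weight (kg) of each sheep of the low (blue) and high (red) class by test block, with black bars at the mean of each group. CH4 yield and DMI leave out sheep oz151; the classes overlap in every trait, and in CH4 production the high mean is 4.07 g/d below the low mean in block 1 and 4.31 g/d above it in block 3. Axes do not start at 0.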

How the data were processed

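RNA sequencing of 62 AUS sheep, 1 library each, was analyzed. The authors used TopHat and Bowtie2 to align stranded read pairs to gene models of Ensembl, and HTSeq to count them, and the log2 CPM values that the authors deposited come from voom, with an offset of 0.5 reads. Further tools in the submitters' notes are edgeR and limma. The table holds 16011 genes, and 11621 of them are above 1 CPM in all libraries. Scaling each library to its lowest values gave whole reads for 100% of values (tolerance 0.01 reads), with 4208032 to 12130080 assigned reads per library (median 7923973). Gene symbols, from the paper's tables, cover 1224 genes. No coordinates or sequences could be joined to the gene IDs.

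Classes were formed by the score within blocks. All genes except the 4 scoring genes and *NEXN* were fitted on class, block and *NEXN* (limma 3.58.1, R 4.3.3, moderated variances with a mean trend), with Benjamini-Hochberg adjustment over 16006 genes and a threshold of 0.05. Differences are high minus low in log2 CPM. The tested genes share libraries with the scoring genes. Traits were tested with 100000 permutations of the class within blocks, a design in which 1e-05 is the smallest p. The test of trait differences between blocks and the single-sheep omissions were added after the values had been seen. Named genes outside the cell cycle list are the 10 largest differences each way past the threshold among genes with a symbol, up to 3 called members of each list or the member of smallest p, and markers of muscle, matrix, epithelium and mitochondria. The sheep, the lists and the tests were chosen with earlier results of these data known. Alternatives replaced or dropped *NEXN*, or added the epithelial adhesion mean or the log2 of assigned reads to it. Others changed the class size, score, filter, scaling or weights, or left out a block. The fits were tested on simulated data. Python 3.11.15 and matplotlib 3.10.9 served for other steps. A few genes that the naming rule covers are not reported here.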

Additional observations from a re-analysis of the deposited data

Results flagged for a closer look

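In groups of 5 sheep (1 class in 1 block), 9 measures were searched for a sheep far from the rest of its group, 72 groups in all, and 4 groups had one. Chance alone marks about 1 group in 20. In the high class of block 3, sheep oz70 had a score of 5.72, while the next sheep had 5.07. In the low class of block 1, sheep oz85 had the lowest DMI, 1.25 kg/d beside 1.47 for the next, and the lowest live weight, 55.5 kg beside 65.5. In the high class of block 2, sheep oz132 had a DMI of 1.73 kg/d beside 1.25 for the next.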

How the results depend on the processing

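With *NEXN*, 279 genes were higher, 116 lower and 56 of those outside the cell cycle list had a symbol. In the same order the counts were 1449, 1507 and 743 with no muscle covariate and 104, 17 and 1 with the muscle list mean. Added to *NEXN*, the epithelial adhesion mean gave 107, 16 and 3, and log2 assigned reads gave 162, 69 and 27. The counts were 447, 242 and 127 with 4 sheep per class and block, and 765, 527 and 244 with the score as a continuous covariate over 62 sheep. Leaving out block 1 gave 98, 16 and 6, block 2 154, 58 and 29, and block 4 134, 27 and 14, while without block 3 the higher count was 163. The count with a symbol was 92 with 6 sheep per class and block and 85 with genes of 3 CPM or more in all 40 libraries. The other counts stayed within 1.5 times. Of the calls with the muscle list mean, 102 of the 104 higher and 16 of the 17 lower were also calls with *NEXN*. For differences that vary between blocks, 6 sheep per class and block gave 3 genes and each other setting 0.

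Left out one at a time, the 40 sheep gave 185 to 360 higher genes, 51 to 176 lower genes and 27 to 92 with a symbol. The higher count moved by over 1.5 times without oz171 (185). The lower count did so without oz171 (51), oz40 (60), oz70 (64), oz218 (64), oz85 (68), oz94 (71) and oz155 (176). No trait passed in any setting. No paired analysis was possible because the labels carry no replicate numbers. The cause of these shifts was not tested. At these depths a gene near 1 CPM rests on few reads.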

Other observations

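*PYGM*, the muscle form of glycogen phosphorylase, was singled out after its values had been seen: it was the only gene with a symbol outside the cell cycle list past the threshold with the muscle list mean as covariate. It ran from 2.99 to 6.05 log2 CPM (median 5.05) in the high class and from 2.85 to 6.28 (median 5.14) in the low class, so the unadjusted levels overlapped almost fully. Its log2 difference was 0.81 (SE 0.15, adjusted p = 0.00186) with that mean, 0.45 (SE 0.15, adjusted p = 0.0922) with *NEXN* and −0.23 (SE 0.24, adjusted p = 0.538) with no muscle covariate.

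*MICAL3*, an enzyme that oxidizes actin, and *LRIG1*, an inhibitor of growth factor receptors, were also chosen after their values had been seen, among the lower genes. *MICAL3* ran from 4.99 to 6.71 log2 CPM (median 5.85) in the high class and from 5.90 to 7.20 (median 6.52) in the low class, and all 20 low sheep lay above the high median. Its log2 difference was −0.39 (SE 0.07, adjusted p = 0.000576) with *NEXN*, −0.30 (adjusted p = 0.0136) with the epithelial adhesion mean and −0.24 (adjusted p = 0.0928) with the muscle list mean. *LRIG1* differed by −0.40 (SE 0.08, adjusted p = 0.00155), −0.27 (adjusted p = 0.0478) and −0.24 (adjusted p = 0.0879) in the same fits.

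Symbols cover 1224 of the 16011 genes, so most genes, called or not, have none. Of the 240 genes called higher outside the cell cycle list, 224 had no symbol, with log2 differences from 0.17 to 1.67 (median 0.45). Of the 116 lower genes, 76 had none, with differences from −1.32 to −0.18 (median −0.37). With the muscle list mean, 65 of the 224 and 16 of the 76 kept their call. Among them the largest rise was that of ENSOARG00000014496 (1.67, SE 0.46, adjusted p = 0.0374), which was 1.98 with the muscle list mean (adjusted p = 0.0407) but 1.80 with the epithelial adhesion mean (adjusted p = 0.0889) and 0.81 with the continuous score (adjusted p = 0.205). Its median was 0.37 log2 CPM in the high class and −0.86 in the low class, levels that rest on few reads. It differed by 0.27 in block 3 (−0.01 before adjustment for *NEXN*). Its call was lost in 9 of the 40 omissions of a single sheep, with the highest adjusted p without oz218 (0.098). The largest fall was that of ENSOARG00000000575 (−1.32, SE 0.38, adjusted p = 0.0496). It was not called with the muscle list mean (−1.31, adjusted p = 0.176), the epithelial adhesion mean (−1.45, adjusted p = 0.109) or the continuous score (−1.08, adjusted p = 0.0525). Omitting a single sheep ended its call in 29 of the 40 cases. ENSOARG00000005905 had the second largest fall (−1.08, SE 0.24, adjusted p = 0.00659), and was at −1.19 with the muscle list mean (adjusted p = 0.0145), −1.02 with the epithelial adhesion mean (adjusted p = 0.0478) and −0.81 with the continuous score (adjusted p = 0.00228). Its medians, 0.17 log2 CPM in the high class and 0.83 in the low class, likewise rest on few reads.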
